A study of Mus musculus with 12 samples.

Results

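The genes described here encode the enzymes that attach glucuronic acid, sulfate or glutathione to small molecules, measured in the colon and whole blood of mice with and without dextran sulfate sodium (DSS) colitis. They were chosen by gene symbol, as the UDP-glucuronosyltransferases (Ugt1, Ugt2 and Ugt3), the cytosolic sulfotransferases (Sult1 to Sult6) and the soluble glutathione transferases (Gsta, Gstm, Gstp, Gstt, Gstk, Gsto and Gstz). The rule found 52 of the 53801 genes counted. Of these, 46 had a mean normalized count of 10 or more in the colon and 24 in the blood, against 22123 and 16370 of all genes. The 2 tissues shared 23 of them, 23 passed only in the colon, Sult6b2 passed only in the blood, and 5 (Sult1c1, Sult1c2-ps2, Ugt2a2, Ugt2b37 and Ugt3a1) passed in neither.

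Total RNA was sequenced from 12 samples, a colon and a blood sample of each of 6 young adult male C57BL/6 mice. Mice 1, 2 and 4 were labelled ulcerative colitis (UC) and, by that label, had 1.5% DSS in the drinking water for 7 days before they were killed on day 8. Mice 7, 8 and 9 were labelled healthy control. No transgene or deletion is named for either set, and by the study's methods the mice to be sequenced were picked by disease activity index. DSS damages the colon epithelium and gives an acute colitis within days, which limits it as a model of the chronic human disease. Values of a gene or list are normalized counts unless another scale is named, given for mice 1, 2 and 4 (labelled UC) and then for mice 7, 8 and 9 (labelled control).

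Conjugation makes drugs, plant compounds, bile pigments and hormones more soluble, so that cells can pump them out. UDP-glucuronosyltransferases sit in the endoplasmic reticulum and take glucuronic acid from UDP-glucuronate, sulfotransferases work in the cytosol with the sulfate donor PAPS, and glutathione transferases add glutathione to reactive electrophiles such as lipid aldehydes. In the intestine these enzymes are mostly a property of the epithelium, which meets dietary and bacterial compounds first, and their genes are known targets of the receptors PXR, CAR and AhR, of the stress factor NRF2 and of epithelial factors such as HNF4 and CDX2.

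Most of these genes lie in clusters. The 9 Ugt1a genes occupy chr1:88055388-88220002 (GRCm38), where each has a first exon of its own and all use the same downstream exons, so 50.3% to 60.6% of the exon bases of each lie in exons of the other 8. The 9 Ugt2 genes lie at chr5:86889767-87490871 and the genes Sult1b1, Sult1d1 and Sult1e1 next to them at chr5:87513339-87591594. Gstm1 to Gstm7 lie at chr3:107895821-108044894, and the Gstp genes at chr19:4035407-4059569. Close copies divide reads: 79.8% of the 50-base stretches of Ugt1a6b occur in another member, as do 46.6% of those of Gsta1, 36.0% of Gsta2, 33.7% of Gstp1, 49.1% of Gstp2 and 41.7% of Ugt2b5. Levels of single Ugt1a genes, of Gsta1 and Gsta2, of Gstp1 and Gstp2 and of Ugt2b5 and Ugt2b38 are therefore uncertain to the extent that the quantification divided shared reads between them. A gene on the other strand, Gm20528, covers 41.5% of the exon bases of Ugt1a1, and the quantification used no strand.

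Promoters from RefSeq (GRCm38.p6) were found for 46 of the 52 members. The windows of 250 bases before to 50 after each start were searched on both strands for the letters CAAAGTCCA (HNF4), TTTATNG (CDX), TGACNNNGC (the antioxidant response element that NRF2 uses), GCGTG (AhR) and TATAAA. The AhR letters were found in 23.9% of members and 35.2% of all 27025 genes with a promoter, the antioxidant letters in 6.52% and 14.0%, the TATA letters in 21.7% and 15.7%, the CDX letters in 4.35% and 12.5%, and the HNF4 letters in 2.17%, the gene Sult1b1, against 0.555%. The following are the 150 bases before the start of Ugt1a1, the member with the largest finite ratio of highest to lowest colon library, and of Gstm5, the member with the highest blood count, both 5′ to 3′ on the strand of the gene and with the matched letters in capitals.
Ugt1a1 (chr1:88211809-88211958, plus strand): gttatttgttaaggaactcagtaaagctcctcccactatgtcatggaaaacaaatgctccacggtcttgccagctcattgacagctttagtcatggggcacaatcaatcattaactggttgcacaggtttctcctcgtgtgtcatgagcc
Gstm5 (chr3:107895704-107895853, plus strand): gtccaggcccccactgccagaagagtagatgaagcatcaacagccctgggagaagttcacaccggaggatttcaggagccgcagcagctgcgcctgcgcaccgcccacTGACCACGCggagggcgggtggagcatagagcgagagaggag
In Gstm5 the run holds the antioxidant letters, and the AhR letters on the opposite strand overlap them. The printed Ugt1a1 stretch matched none of the 5. A match is a run of letters and was not tested for binding.

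Some facts on the libraries come before the results, since they touch each of them. The labels state the tissue in 2 fields that contradict each other in all 12 samples, and the field used here is the one whose colon samples carry the epithelial markers: by edgeR, 10 of 10 colon epithelium genes were higher in the colon libraries than in the blood libraries, with a median log2FC of 12.17. Total counts were 69181049 to 103662306 per colon library and 80867247 to 142536804 per blood library, but genes of 7SL RNA took 35.9% to 65.4% of the blood counts against 4.90% to 6.50% in the colon. The members held 0.133% to 0.295% of the counts of a colon library and 0.00467% to 0.0110% of a blood library. The inflammatory genes did not follow the disease labels. The sum of 13 genes the study described as inflammatory, among them S100a8, S100a9 and Lcn2, was 106479.6, 9661 and 8399 in mice 1, 2 and 4 and 75664, 7231 and 198612 in mice 7, 8 and 9 in the colon, and 422202, 55622 and 54737 in mice 1, 2 and 4 and 165523, 44852 and 349602 in mice 7, 8 and 9 in the blood. In both tissues the highest sums were those of mouse 1, labelled UC, and of mice 7 and 9, labelled control. The labels are kept as given, each test compares the libraries labelled UC with those labelled control, and the values of single libraries are printed so that they can be read without the labels.

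In the colon the conjugating enzymes were led by genes of all 3 kinds. Per length, as CPM (counts scaled to library size with TMM factors) per kilobase of exon, mean ± SD over n = 6 libraries, the highest was Gsto1, an omega class enzyme that reduces dehydroascorbate, at 112 ± 13.4. It was followed by the phenol sulfotransferase Sult1a1 at 103 ± 49.0, the catecholamine sulfotransferase Sult1d1 at 87.8 ± 43.1 and the glucuronosyltransferase Ugt2b34 at 87.5 ± 32.02. Gstp1, the main pi class enzyme, reached 84.3 ± 19.4, and Sult1b1, which sulfates thyroid hormones and phenols, 61.9 ± 18.3. The order is loose: of the 45 pairs of neighbours in this ranking, 44 differed by no more than 1 SD (the larger of the pair), and the exception was Gstp1 above Sult1b1. By summed normalized count the Sult1 genes held 26.6% of all members, the Ugt2 genes 18.9%, the Ugt1a genes 17.5%, the classes Gstk, Gsto and Gstz together 12.9%, Gstp 9.25%, Gstm 8.14%, Gstt 3.59%, Gsta 2.33% and Sult2 to Sult6 0.93%.

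**Figure D1:**
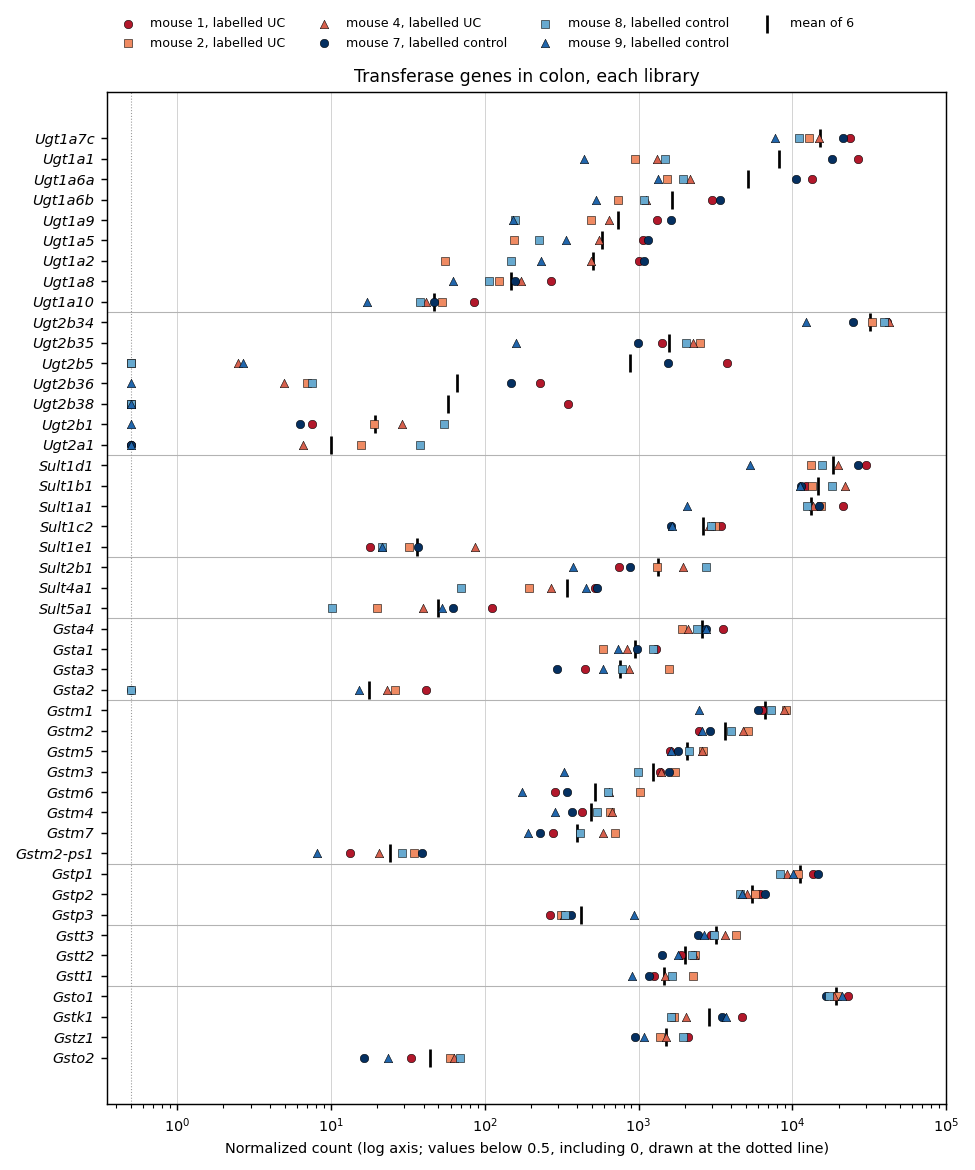
Levels of the members in the 6 colon libraries on a log axis, with each library as a point coloured by its label. Ugt1a1 and Ugt1a6a show 2 libraries, mice 1 and 7, far above the other 4, while Gsto1 stays within 1.40 times from lowest to highest.

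The members varied more between colon libraries than most genes did. Among the 36 members with a mean of 100 or more, the median ratio of the highest to the lowest library was 3.54, against 1.86 over 15842 genes. The median leaves out 1 member without a finite ratio. The ratio passed 5 in 14 members, where 10.9% of all genes passed it. Part of that spread lay in the Ugt1a locus. Outside it, Ugt2b35, Sult1a1, Sult1d1, Sult2b1, Sult4a1, Gsta3, Gstm3 and Gstm6 also passed 5.

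Ugt1a1, the enzyme that conjugates bilirubin, stood at 26600.3, 948 and 1313 in mice 1, 2 and 4 and 18209, 1489.9 and 443 in mice 7, 8 and 9. Its ratio of highest to lowest, 60.1, was the largest that could be formed for a member with a mean of 100 or more (Ugt2b5, at 0 in mice 2 and 8 and high in mice 1 and 7, has no finite ratio). The libraries of mice 1 and 7 stood apart from the other 4, and carry different labels, so the labelled groups overlapped. Ugt1a6a, which prefers flat phenols, repeated that picture at 13394, 1526 and 2167 in mice 1, 2 and 4 and 10629, 1941 and 1333 in mice 7, 8 and 9. Ugt1a7c, the Ugt1a gene of highest mean, varied less, at 23578, 12792 and 14926 in mice 1, 2 and 4 and 21429.7, 11073 and 7695 in mice 7, 8 and 9. It too was highest in mice 1 and 7 and lowest in mouse 9.

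Of the smaller Ugt1a genes, Ugt1a2, Ugt1a5, Ugt1a6b and Ugt1a9 followed the same pair of libraries. Ugt1a8 had its 2 highest values in mice 1 and 4, and Ugt1a10 in mice 1 and 2. Ugt1a2 was at 1014, 54.9 and 489 in mice 1, 2 and 4 and 1089, 147 and 232 in mice 7, 8 and 9. Ugt1a9 was at 1322, 489 and 642 in mice 1, 2 and 4 and 1622, 156 and 153 in mice 7, 8 and 9. Both had their highest values in mice 7 and 1, and in Ugt1a9 mouse 4 and mouse 2 came next. Summed over the 9 genes, which leaves aside how shared exons were divided among them, the normalized count was 70321, 16879 and 21420.5 in mice 1, 2 and 4 and 57741, 16259 and 10799 in mice 7, 8 and 9. The sum was therefore highest in mice 1 and 7 and lowest in mouse 9, and the Ugt1a share of all members was 27.02% and 27.96% in mice 1 and 7 and 9.50% to 11.01% in the other 4.

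Some other measures moved with this pair of libraries. A list of 6 small intestine genes (Fabp2, Lct, Sis, Apoa4, Fabp6 and Alpi) summed to 15476, 820.3 and 929.6 in mice 1, 2 and 4 and 23114, 563 and 778 in mice 7, 8 and 9. The 8 absorptive colonocyte genes summed to 964809.7, 420569.6 and 713079.6 in mice 1, 2 and 4 and 1109635, 738544 and 169450.5 in mice 7, 8 and 9. The caudal factor Cdx2, which sets intestinal identity, was at 12701, 1411 and 1216 in mice 1, 2 and 4 and 11069, 1228 and 3808 in mice 7, 8 and 9. Mice 1 and 7 had the 2 highest values of each of these. Cdx2 is 1 gene from a list of 20 xenobiotic and epithelial regulators, and the sum of that list had another order, with mouse 8 highest. The list summed to 175040, 153304 and 167997 in mice 1, 2 and 4 and 147563, 183269 and 106237 in mice 7, 8 and 9. The 10 colon epithelium genes also had another order, with mouse 8 highest. They summed to 1010680, 1076461 and 1203944 in mice 1, 2 and 4 and 1340762, 1364820 and 964469 in mice 7, 8 and 9. The part of the cell makeup or position of the piece of intestine in the Ugt1a values was not tested. In bulk tissue, fewer cells of a type and less RNA per cell cannot be told apart.

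The most abundant Ugt2 genes, whose products handle steroids and other lipids, had another order. Ugt2b34 had the highest mean normalized count of all members, at 41365, 32848 and 42484 in mice 1, 2 and 4 and 24839, 39483 and 12275 in mice 7, 8 and 9. Mouse 9 was lowest and mouse 7 next, and the other 4 lay within 32848 to 42484. Ugt2b35 was at 1425, 2523 and 2270.0 in mice 1, 2 and 4 and 991, 2031 and 160.2 in mice 7, 8 and 9. Its lowest library was again mouse 9, followed by mice 7 and 1, and its ratio of highest to lowest was 15.8.

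Ugt2b5 was counted almost entirely in 2 libraries. It was at 3736, 0 and 2.47 in mice 1, 2 and 4 and 1566, 0 and 2.70 in mice 7, 8 and 9. Ugt2b36 shared this picture at 229, 6.97 and 4.95 in mice 1, 2 and 4 and 148, 7.56 and 0 in mice 7, 8 and 9, and Ugt2b38 was counted in mouse 1 alone, at 346. Beside these stands a list of 8 epididymis and male accessory gland genes, of which 4 are in the colon table: it summed to 823, 2.61 and 0 in mice 1, 2 and 4 and 525, 0 and 0 in mice 7, 8 and 9. Nearly all of that sum was Defb37, at 789 in mouse 1 and 517 in mouse 7, so the list rests on 1 gene. The adipose list (4 of 4 genes) summed to 9807, 1260.1 and 883 in mice 1, 2 and 4 and 2285, 1126 and 2422 in mice 7, 8 and 9. Mouse 1 was highest in it, and the part of other tissue in the Ugt2b5 and Ugt2b36 values was not tested. The hepatocyte list (7 of 7 genes) summed to 2129, 2938 and 2909 in mice 1, 2 and 4 and 322, 2343 and 701 in mice 7, 8 and 9. Albumin, 1 gene of that list, ran from 0 to 72.3. Ugt2b1 (up to 54.2) and Ugt2a1 (up to 37.8) were low in every colon library.

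Among the sulfotransferases, Sult1d1 was highest in mice 1 and 7 and lowest in mouse 9, at 29949, 13156 and 19936 in mice 1, 2 and 4 and 26587, 15592 and 5318 in mice 7, 8 and 9. Sult1b1 had the opposite lean, with its 3 highest values in mice 4, 8 and 2, at 12217, 13372 and 21971 in mice 1, 2 and 4 and 11414, 17997 and 11253 in mice 7, 8 and 9. Sult1a1 stayed between 12427 and 21429.7 in 5 libraries and stood at 2066 in mouse 9, the full set being 21429.7, 15348 and 13594 in mice 1, 2 and 4 and 14989, 12427 and 2066 in mice 7, 8 and 9. The 3 most abundant sulfotransferases therefore each had their lowest value in mouse 9. Sult1c2 ran from 1624 to 3434, and the oestrogen sulfotransferase Sult1e1 from 18.0 to 86.6.

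Sult2b1, which sulfates cholesterol and hydroxysteroids, was at 744, 1325 and 1955 in mice 1, 2 and 4 and 879, 2728 and 376 in mice 7, 8 and 9. Its 3 lowest libraries were mice 9, 1 and 7. Sult4a1, a member best known from brain, was at 524, 193 and 269.7 in mice 1, 2 and 4 and 535, 70.6 and 456 in mice 7, 8 and 9. Sult5a1 was at 112, 20.0 and 39.6 in mice 1, 2 and 4 and 62.0, 10.1 and 53.1 in mice 7, 8 and 9. These last 2 were low and had their 2 highest values in mice 1 and 7, though mouse 9 was close behind in both.

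The alpha class of glutathione transferases includes Gsta4, which clears lipid aldehydes, and Gsta3, which in mice detoxifies aflatoxin epoxide. Gsta4 was at 3534, 1905 and 2110.0 in mice 1, 2 and 4 and 2762, 2399.9 and 2753 in mice 7, 8 and 9. Gsta1 was at 1303, 585 and 845 in mice 1, 2 and 4 and 983, 1247 and 737 in mice 7, 8 and 9. Gsta3 was at 446, 1583 and 864 in mice 1, 2 and 4 and 293, 779 and 588 in mice 7, 8 and 9. Gsta4 had a ratio of highest to lowest of 1.85 with mice 1 and 7 highest, whereas Gsta3 had these same libraries as its lowest. Gsta2 was near the limit of detection, at 41.7, 26.1 and 23.1 in mice 1, 2 and 4 and 0, 0 and 15.3 in mice 7, 8 and 9, with every UC-labelled value above every control-labelled one.

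Most genes of the mu class shared another order. Gstm1 was at 6310.0, 9082 and 8774 in mice 1, 2 and 4 and 5994, 7249 and 2484 in mice 7, 8 and 9. Gstm2 was at 2485, 5155 and 4759 in mice 1, 2 and 4 and 2897, 3992 and 2597 in mice 7, 8 and 9. Gstm5 was at 1605, 2613 and 2574 in mice 1, 2 and 4 and 1805, 2143 and 1632 in mice 7, 8 and 9. In all 3 the libraries of mice 2, 4 and 8 were the highest, and the same was true of Gstm4, Gstm6 and Gstm7. Gstm3, at 329 to 1726, also had its lowest value in mouse 9, but not the same upper 3.

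Gstp1 was at 13692, 10873 and 9257 in mice 1, 2 and 4 and 14751, 8275 and 10086 in mice 7, 8 and 9. Gstp2 was at 6199, 5716 and 5107 in mice 1, 2 and 4 and 6681, 4584 and 4719.5 in mice 7, 8 and 9. Both were highest in mice 7 and 1, with ratios of highest to lowest of 1.78 and 1.46. Gstp3 was at 264, 315 and 326 in mice 1, 2 and 4 and 365, 330.2 and 937 in mice 7, 8 and 9, so that mouse 9 alone stood far above the rest. Of the theta class, Gstt3 was at 2939, 4278 and 3676 in mice 1, 2 and 4 and 2449.5, 3105 and 2655 in mice 7, 8 and 9, Gstt2 at 1887, 2316, 2291, 1419, 2237 and 1801, and Gstt1 at 1270.2, 2266, 1495, 1179, 1659 and 901 in the same order. The 3 theta genes were each highest in mice 2, 4 and 8.

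Gsto1, with 23142, 19542 and 18633 in mice 1, 2 and 4 and 16475, 17263 and 21137 in mice 7, 8 and 9, had a ratio of highest to lowest of only 1.40. Gstk1, a mitochondrial and peroxisomal enzyme, was at 4694, 1708 and 2037 in mice 1, 2 and 4 and 3475, 1634 and 3705 in mice 7, 8 and 9. Gstz1, which isomerises maleylacetoacetate in tyrosine breakdown, was at 2113, 1386 and 1502 in mice 1, 2 and 4 and 955, 1954 and 1084 in mice 7, 8 and 9. Gstk1 was highest in mice 1, 9 and 7, and Gstz1 showed no such order. Gsto2 was low, at 16.4 to 69.3.

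Across the members, single libraries rather than labels marked the extremes. Mouse 9 held the lowest value of 22 of the 42 members with a single lowest library (52.4%), against 20.5% of all genes. Mice 1 and 7 held the 2 highest values of 15 of 45 members (33.3%, all genes 11.8%): Gsta4, Gstp1, Gstp2, Sult1d1, Sult4a1, Sult5a1, Ugt2b5, Ugt2b36 and 7 of the 9 Ugt1a genes. Mice 1, 7 and 9 held the 3 lowest values of 16 of 45 (35.6%, all genes 14.7%): Gsta3, the Gstm genes 1, 2, 4, 5, 6 and 7, Gsto2, the 3 Gstt genes, Sult1b1, Sult2b1, Ugt2a1, Ugt2b1 and Ugt2b35. The 3 highest values fell in mice 1, 7 and 9, the libraries of high inflammatory counts, for 5 of 45 (11.1%, all genes 18.3%), and in mice 1, 4 and 7 for 8 of 45 (17.8%, all genes 3.56%). Those 8 were Sult1d1, Ugt1a2, Ugt1a5, Ugt1a6a, Ugt1a6b, Ugt1a7c, Ugt1a8 and Ugt1a9. All but Sult1d1 belong to 1 locus and share exons, so they are not separate observations. These are counts of orders, without a test, and all genes share the same 6 libraries. Outside mice 1 and 7, Ugt2b5 was at 0 to 2.70 and Ugt2b36 at 0 to 7.56, so both reached the minimum mean only through those libraries. Ugt2a1, at 0 in mice 1, 7 and 9, reached it only through mice 2, 4 and 8. The places of Ugt2b5, Ugt2b36 and Ugt2a1 in these counts therefore follow from the filter.

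**Figure D2:**
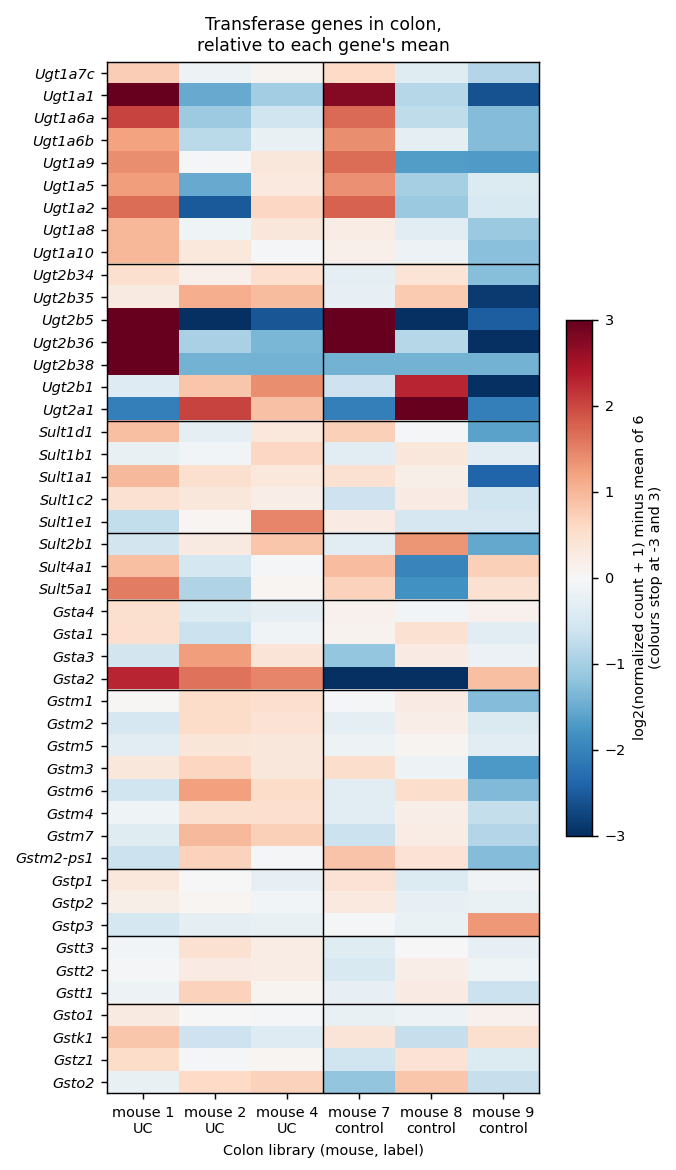
Each kept member (rows) in the 6 colon libraries (columns), as log2(normalized count + 1) minus its own mean over the libraries, with colours stopping at -3 and 3. One block, most of Ugt1a with Sult1d1 and Gstp1, is high in mice 1 and 7. Another, the Gstt genes and most Gstm genes with Ugt2b35, is low in mice 1, 7 and 9, while Gstm3 and Gstm2-ps1 have other orders.

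Beside these orders stand the genes that feed the reactions. Ugdh, which makes UDP-glucuronate, was at 39341, 14314 and 19796 in mice 1, 2 and 4 and 30771, 16859 and 4059.9 in mice 7, 8 and 9. Slc35d1, which carries it into the endoplasmic reticulum, was at 9332, 1655 and 1359 in mice 1, 2 and 4 and 8229.9, 2203 and 1884 in mice 7, 8 and 9. Both were highest in mice 1 and 7, as most Ugt1a genes were. Papss2, which makes the sulfate donor, was at 50969.9, 16863 and 20243 in mice 1, 2 and 4 and 42248, 19757 and 15874 in mice 7, 8 and 9, also highest in mice 1 and 7. The sulfate transporter Slc26a2 had the reverse order, at 77267, 123414 and 250726 in mice 1, 2 and 4 and 58836, 224789 and 44898 in mice 7, 8 and 9, with mice 4, 8 and 2 highest as for Sult1b1. The 13 NRF2 targets outside the families summed to 93896, 51385 and 47759.5 in mice 1, 2 and 4 and 92072, 48335 and 84389.6 in mice 7, 8 and 9. That sum was highest in mice 1, 7 and 9, unlike the Gstm genes, some of which are classical NRF2 targets.

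Comparing the colon libraries labelled UC with those labelled control asks how the transferases differed under the study's labels. No member was called. The nearest were Sult1c2, Gstt3 and Gstm7, with higher means in the libraries labelled UC, and Gstp3, with a lower mean, and none of them passed the test. Most estimates were above 0: the median log2FC of the members was 0.35, against -0.01 for all genes, and 33 of 42 members lay above 0, against 49% of genes. This lean is a description of 6 libraries in which mouse 9, labelled control, was the lowest for many members. Without mouse 9 the median was 0.18 and 29 of 46 tested members lay above 0.

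The test was edgeR's quasi-likelihood test with Benjamini-Hochberg adjustment over all genes, and a call needed an adjusted p no higher than 0.05 together with a log2FC above 1 or below -1. Of the 46 kept members 42 were tested, and Ugt2b5, Ugt2b36, Ugt2b38 and Ugt2a1 were not, because too few libraries passed the minimum count of the filter. It called 0 of the 42 members, against 1 of 22238 genes (0.0045%), and 0 had an unadjusted p under 0.05, against 313 genes (1.41%). DESeq2 called 0 members, so Ugt2b5 was not called by it either. The study, which also used DESeq2, listed Ugt2b5 among its differentially expressed colon genes. It reported far more such genes in the colon than the 6 of all genes that DESeq2 called here. The reason for this difference was not tested. Every adjusted p of the members named next was 0.9999 by edgeR.

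Sult1c2 was at 3434, 3157 and 2862 in mice 1, 2 and 4 and 1624, 2978 and 1644 in mice 7, 8 and 9. Its log2FC was 0.58 ± 0.28 (SE), unadjusted p = 0.0823 in the edgeR fit. The labelled groups overlapped, and the low values were those of mice 7 and 9. Gstt3 (log2FC 0.39 ± 0.20 (SE), unadjusted p = 0.0931, edgeR) and Gstm7 (0.88 ± 0.47 (SE), unadjusted p = 0.110, edgeR) also overlapped between labels. Gstp3 had means of 302 ± 32.9 against 544 ± 340.4 (SD, n = 3 each), with a log2FC of -0.86 ± 0.44 (SE), unadjusted p = 0.0985 in edgeR's fit, which was -0.23 without mouse 9. Gsta1 (log2FC -0.14 ± 0.36 (SE), unadjusted p = 0.714, edgeR) and Gsta4 (-0.08 ± 0.26 (SE), unadjusted p = 0.764, edgeR) were next below 0, with differences smaller than their errors. Labelled groups did not overlap for Gsta2 (higher with the UC label) and Gstp3 (lower), which is 2 of 46 members (4.35%), against 5.59% of genes. Left without mouse 8 the edgeR fit gave 7 of 46 tested members an unadjusted p under 0.05, against 1942 of 23122 genes. Without mouse 1 it gave 3 of 43 members such a p, against 795 of 22754 genes. In either fit 0 members were called.

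**Figure D3:**
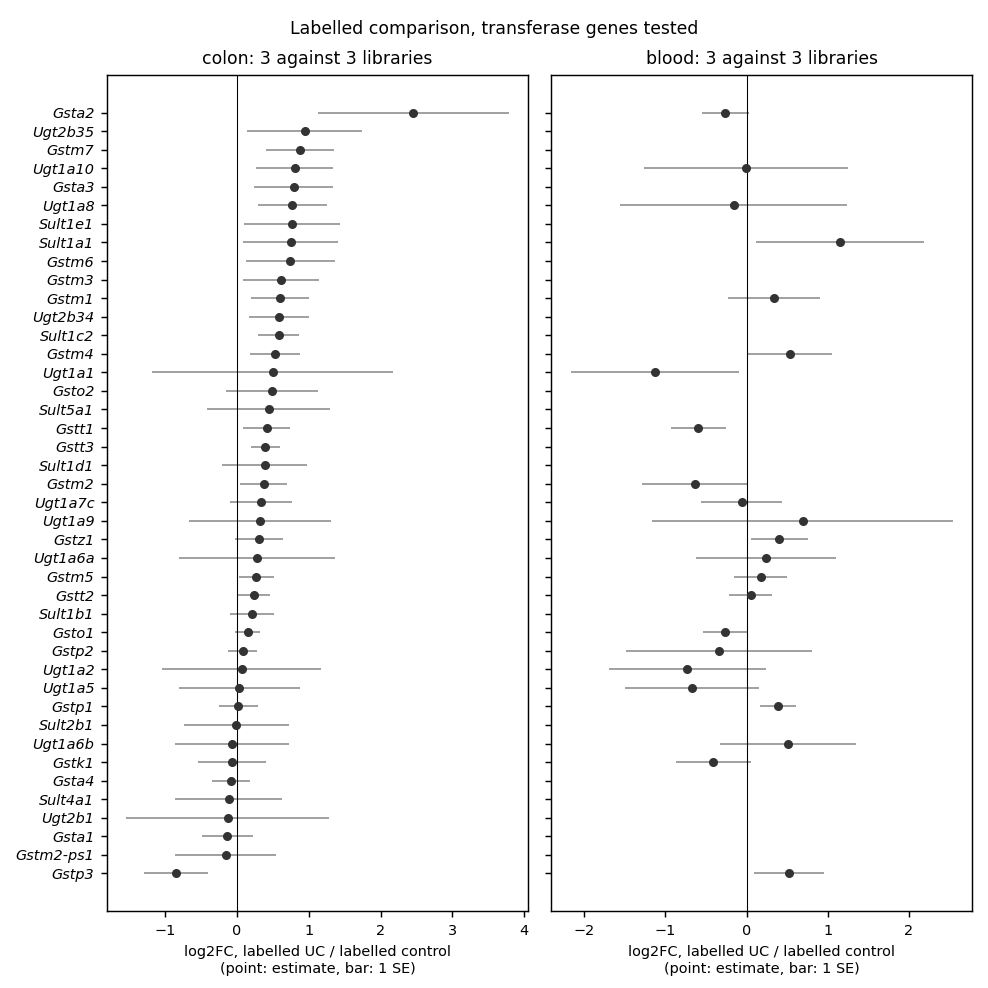
Log2 fold change of each tested member, UC-labelled against control-labelled libraries, with its standard error, in colon and blood. Estimates above 0 mean a higher level with the UC label, and no member was called in either tissue.

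The pathway genes around the transferases gave the same count. In 9 lists (93 genes, of which 92 were tested) covering cofactor supply, glutathione synthesis, efflux pumps, regulators, deconjugating enzymes and related transferases, edgeR called 0 in the labelled colon comparison. It gave 1 an unadjusted p under 0.05, DESeq2 called 0, and the median log2FC was 0.03.

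Blood held far fewer of these transcripts. Per length the highest was Gstm5, a mu class enzyme, at 27.0 ± 7.59 CPM per kilobase (mean ± SD, n = 6). Gstp1 followed at 2.53 ± 0.480, Ugt1a7c at 2.53 ± 1.27 and Gsto1 at 1.87 ± 0.413. Of the 23 pairs of neighbours 21 differed by no more than 1 SD, the exceptions being Gstm5 above Gstp1 and Gsto1 above Gsta2. The Gstm genes held 51.4% of the members' normalized counts and the Ugt1a genes 26.4%, and no Ugt2 gene reached a mean of 10.

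Gstm5 was at 5372, 4895 and 2512 in mice 1, 2 and 4 and 2990.1, 4618 and 3672 in mice 7, 8 and 9. Over the 6 libraries this is the same order as the summed counts of the red cell list, which were 7817640.2, 7425746 and 3943390.4 in mice 1, 2 and 4 and 4576881, 6931208 and 6171149.7 in mice 7, 8 and 9. Mouse 1 was highest and mouse 4 lowest in both, and the part of red cell RNA in the Gstm5 values was not tested.

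Ugt1a7c was at 2301, 659 and 702 in mice 1, 2 and 4 and 1436, 854 and 1505 in mice 7, 8 and 9. Ugt1a6a was at 812, 101 and 105 in mice 1, 2 and 4 and 295, 101 and 463 in mice 7, 8 and 9. Ugt1a6b, which shares most of its sequence with other Ugt1a genes, was at 794, 236 and 62.2 in mice 1, 2 and 4 and 214, 106 and 444 in mice 7, 8 and 9. Ugt1a7c and Ugt1a6a were highest in mice 1, 9 and 7, the libraries of high inflammatory counts in blood, and Ugt1a6b in mice 1, 9 and 2. The neutrophil list (7 of 7 genes) summed to 457940.0, 54670.3 and 47702 in mice 1, 2 and 4 and 153321, 39805 and 351102 in mice 7, 8 and 9, with the same 3 libraries highest, and its part in the Ugt1a values was not tested.

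Of the other leading blood members, Gstp1 was at 581, 551 and 416 in mice 1, 2 and 4 and 401, 368 and 414 in mice 7, 8 and 9. Gsto1 was at 452, 298 and 446 in mice 1, 2 and 4 and 374, 580.3 and 484 in mice 7, 8 and 9. Gsta2 was at 225, 141 and 138 in mice 1, 2 and 4 and 192, 180.4 and 232 in mice 7, 8 and 9. Gstp1 was the one kept blood member whose labelled groups did not overlap. Gstt2 was at 156, 173 and 167 in mice 1, 2 and 4 and 141, 193 and 143 in mice 7, 8 and 9. Gstz1 was at 111, 176 and 221 in mice 1, 2 and 4 and 155, 132 and 96.0 in mice 7, 8 and 9. Gstp2 was at 171, 164 and 0 in mice 1, 2 and 4 and 137, 122 and 159.7 in mice 7, 8 and 9. The 0 of Gstp2 in mouse 4 stands beside ordinary values of its close copy Gstp1 there. Mice 1, 7 and 9 held the 3 highest blood values of 7 of 24 members (29.2%, all genes 11.8%): Gsta2, Sult6b2, Ugt1a2, Ugt1a5, Ugt1a6a, Ugt1a7c and Ugt1a8. The Ugt1a genes among the 7 belong to 1 locus and share exons, so they are not separate observations. Sult6b2 was at 0 in mice 2, 4 and 8 and reached a mean of 10 only through mice 1, 7 and 9, so its order follows from the filter. Mice 1, 7 and 9 held the 3 lowest of 2 (8.33%, all genes 7.31%).

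**Figure D4:**
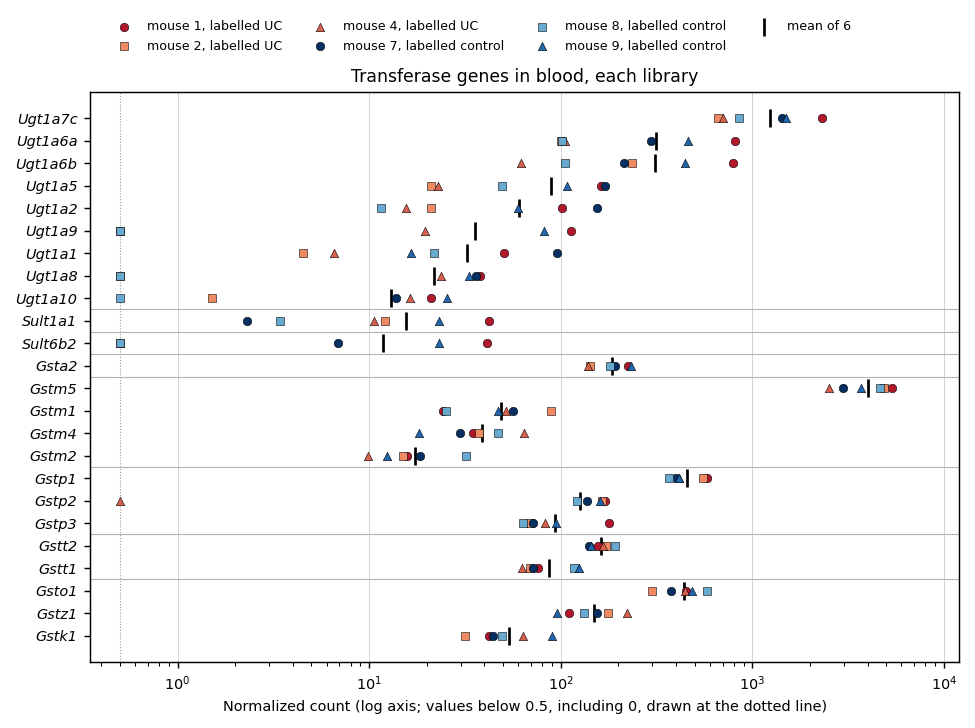
Levels of the kept members in the 6 blood libraries on a log axis, each library a point coloured by its label. Gstm5 lies above every other member in every library, and the Ugt1a genes show a spread between libraries that Gstp1 and Gstt2 do not.

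Between blood libraries labelled UC and control, no transferase passed the test. Gstp1, with a higher mean under the UC label, and Gstt1, with a lower one, came nearest. By edgeR's quasi-likelihood test 0 of 23 members were called, against 0 of 16759 genes (0%). The count at an unadjusted p under 0.05 was 0 members and 241 genes (1.44%). DESeq2, which tested 36 members, called 0 members and gave 2 an unadjusted p under 0.05. The median log2FC was -0.01 for the members and 0.04 for all genes.

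Gstp1 had means of 516 ± 87.7 against 394 ± 23.8 (SD, n = 3 each), and a log2FC of 0.38 ± 0.22 (SE), unadjusted p = 0.123 in the edgeR fit. It was the 1 of 24 kept members with labelled groups apart (4.17%), against 6.5% of genes. Gstp3 (log2FC 0.52 ± 0.43 (SE), unadjusted p = 0.255, edgeR) and Gstz1 (0.40 ± 0.35 (SE), unadjusted p = 0.285, edgeR) had estimates above 0. Gstt1 (log2FC -0.59 ± 0.34 (SE), unadjusted p = 0.118, edgeR), Ugt1a1 (-1.13 ± 1.04 (SE), unadjusted p = 0.309, edgeR) and Gsto1 (-0.27 ± 0.27 (SE), unadjusted p = 0.351, edgeR) had estimates below 0. Their adjusted p was 0.9998 by edgeR. The Ugt1a1 estimate rests on normalized counts of 4.52 to 95.7. The 65 pathway genes tested in blood gave 0 calls by edgeR, 0 at an unadjusted p under 0.05, and 0 by DESeq2.

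Whether the label's effect differed between tissues was asked with an interaction term fitted to the 12 libraries. EdgeR called 0 of 42 members, against 1 of 23258 genes (0.0043%), and 5 members (Sult2b1, Gstm7, Gstm2-ps1, Ugt2b34 and Gstt1) had an unadjusted p under 0.05, against 793 genes (3.41%). DESeq2 called 0 members and gave 7 such a p. Ugt2b34 (log2 difference 6.93 ± 2.92 (SE), unadjusted p = 0.0414, edgeR), Sult2b1 (-7.49 ± 2.62 (SE), unadjusted p = 0.0187, edgeR) and Gstm7 (-6.27 ± 2.45 (SE), unadjusted p = 0.0306, edgeR) take their size from blood libraries at or near 0 counts, and without mouse 9 the Ugt2b34 difference was 0.24. Gstt1, counted in every library of both tissues, had a log2 difference of 0.99 ± 0.45 (SE), unadjusted p = 0.0484 by edgeR. Of 92 pathway genes 0 were called, with 2 at an unadjusted p under 0.05, and DESeq2 called 0.

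Colon and blood differed far more than the labels did. Most of the transferases tested were higher in the colon, among them each tested Ugt2, Sult and Gstt gene, and Gsta2 and Gstm5 were higher in the blood. EdgeR called 35 of the 42 tested members, 33 higher in colon and 2 higher in blood, where it called 58.5% of all genes (37.7% higher in colon and 20.8% higher in blood) and gave 72.8% an unadjusted p under 0.05. Libraries of the tissues did not overlap for 32 of the 42 tested members. The same count was not made over all genes, so the 32 cannot be set against a background share. The contrast is the mean of the colon groups minus the mean of the blood groups in CPM with TMM factors. The colon and blood libraries also differed in preparation, since globin RNA was depleted in blood alone, so tissue and preparation cannot be told apart.

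The families differed in how completely they followed this. Called higher in colon were 3 of 3 tested Ugt2 genes, 5 of 5 Sult1, 3 of 3 Sult2 to Sult6, 3 of 3 Gstt, 4 of 4 Gstk, Gsto and Gstz genes, 3 of 4 Gsta, 7 of 8 Gstm, 2 of 3 Gstp and 3 of 9 Ugt1a. The 7 members not called were Gstp3 and 6 Ugt1a genes (Ugt1a2, Ugt1a5, Ugt1a6b, Ugt1a8, Ugt1a9 and Ugt1a10). The Ugt1a locus was thus the one family mostly not called between tissues.

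Gsta2, an alpha class enzyme, had CPM of 4.12, 2.495, 2.51, 3.59, 3.22 and 4.20 in the blood of mice 1 to 9 in order and 0.231, 0.142, 0.126, 0, 0 and 0.0848 in the colon. The lowest blood library lay above the highest colon library. Its log2FC of colon over blood was -5.51 ± 0.71 (SE), adjusted p = 3.82e-05 by edgeR, and the pooled CPM was 31.6-fold higher in blood. The fitted value ran from -7.91 to -5.19 with each mouse left out, the former without mouse 9, when the remaining control-labelled colon libraries are both at 0. Gstm5 had CPM of 98.3, 86.3, 45.7, 55.9, 82.4 and 66.6 in blood and 8.90, 14.3, 14.0, 10.3, 11.99 and 9.05 in colon. The tissues were again apart, with a log2FC of -2.67 ± 0.23 (SE), adjusted p = 1.67e-06 by edgeR and a pooled CPM 6.02-fold higher in blood. With scaling by library size only, the call for Gstm5 was lost (log2FC -0.51, adjusted p = 0.0584 by edgeR), and the median of all genes moved from 0.46 to 2.57, by 2.11. That scaling called 41 members, 40 of them higher in colon and Gsta2 higher in blood. Of all genes it called 19644 of 23258, with 17887 higher in colon. It changed the sign of 0 of the 42 members, and raised the share of colon among all genes called from 64.4% to 91.1%.

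The largest differences toward the colon were in genes all but absent from blood. Sult1b1 had 3 counts over the 6 blood libraries, which gives a ratio of pooled CPM of 9365 with a 95% counting interval of 3205 to 45414 (log2FC 14.24 ± 0.63 (SE), adjusted p = 1.44e-07, edgeR). Ugt2b34, with 16 blood counts, all in mouse 9, was 3824-fold higher in colon (log2FC 14.19 ± 1.06 (SE), adjusted p = 3.01e-06, edgeR). Sult1d1, with 6 blood counts, also all in mouse 9, was 5689-fold higher (log2FC 14.08 ± 0.97 (SE), adjusted p = 1.86e-06, edgeR). These are ratios over very few counts. The fitted log2FC averages the labelled groups on the log scale, so where a blood group is near 0 it depends on the prior count, does not match the pooled ratio and is no bound. Without mouse 9 it was 17.50 for Ugt2b34, 16.76 for Sult1d1 and 16.29 for Sult1b1, and with each other mouse left out it was at least 13.81, 13.49 and 13.99 in that order. Sult1c2 had 0 counts in all 6 blood libraries and was at least 1672-fold higher in colon, and Ugt2b35, likewise at 0, was at least 1004-fold higher, with a floor of 3 counts over the 6 libraries. Of the called members, 8 had 0 counts in every blood library. Intervals and floors cover counting error only.

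**Figure D5:**
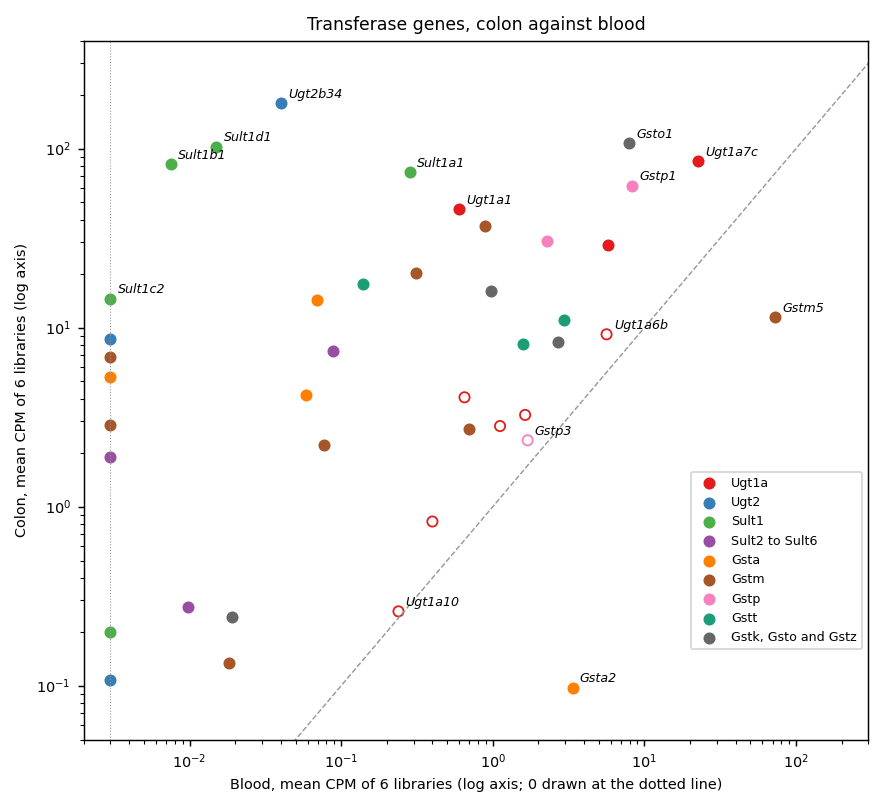
Mean CPM of each member over the 6 colon libraries (log axis) against its mean over the 6 blood libraries (log axis, with 0 drawn at the dotted line), filled where called, open where not, with a dashed line of equality. Most members lie far to the colon side, Gstm5 and Gsta2 lie on the blood side, and members at 0 in blood line up at the left.

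The genes around the transferases were called in both directions, and the blood direction depended on the scaling. EdgeR called 66 of 92 pathway genes, 54 higher in colon and 12 higher in blood, with a median log2FC of 2.38 against 0.46 for all genes, and DESeq2 called 65. Scaled by library size only, 79 were called higher in colon and 4 (Alox5ap, Chac2, Gclm and Gpx1) higher in blood, and 20 changed sign. Of 20 regulators 17 were higher in colon, among them PXR (Nr1i2), Hnf4a and Cdx1. Cofactor supply for glucuronidation was higher in 3 of 4 genes (Ugdh, Ugp2 and Slc35d1) and that for sulfation in 4 of 7 (Papss1, Papss2, Slc26a2 and Bpnt1). Efflux pumps were higher in 5 of 9 (Abcb1a, Abcb1b, Abcc2, Abcc3 and Abcc6) and lower in 2 (Abcc4 and Abcc5, whose sign turned with library size only). Glutathione synthesis and recycling went the other way, with 8 of 14 genes higher in blood, among them Gclm, Gsr, Gpx1, Gpx4 and Slc7a11, and 3 (Gpx2, Gss and Oplah) higher in colon, whereas with library size only 5 were higher in colon and 3 in blood, with the sign of Gsr and Slc7a11 turned. In the list of membrane glutathione transferases and other glutathione transferase folds, 8 of 12 genes were higher in colon. Alox5ap, which serves leukotriene synthesis, was higher in blood. Of the other conjugating enzymes 9 of 13 were higher in colon and Tpst2 was lower (its sign turned with library size only), of the NRF2 targets 4 of 13 were higher and 2 (Gclm and Slc7a11) lower (with library size only 11 were higher, Gclm alone was lower, and 6 changed sign), and of the deconjugating enzymes Arsa was higher, 1 of 3.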

How the data were processed

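Total RNA from 6 colon and 6 blood samples was depleted of ribosomal RNA, and blood also of globin RNA. The authors trimmed reads with Flexbar, removed ribosomal reads with bbduk, aligned what remained with STAR (mouse build GRCm38) and obtained gene abundances from StringTie (version 1.3.4c, from the submitters' processing notes) on an Ensembl annotation. The deposited counts per gene are whole numbers derived from StringTie coverage, with no strand set. The deposited normalized values are a signal scale on which the authors divided each count by 1 DESeq2 size factor per library, separately per tissue, so they were compared only within a tissue.

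Groups came from the disease and tissue characteristics and numbers from the titles. Replicates are separate mice, 3 per group. Members and lists were chosen with earlier results of these data known. Every member may be named: library values are given for the 3 of highest mean per family in the colon, the 6 of largest ratio and the 10 of highest mean in the blood, and fold changes for the 3 of lowest p per direction in each labelled comparison, the 2 per direction in the interaction and the 5 largest differences per direction between tissues.

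The counts went into edgeR 4.0.16 under R 4.3.3 (TMM, filterByExpr, glmQLFit, glmQLFTest, Benjamini-Hochberg adjustment over all genes). Each tissue was fitted alone, and the interaction and the tissue contrast over 12 libraries in 4 groups. SE is the absolute log2FC divided by the square root of F. The biological coefficient of variation was 0.503 in the colon and 0.417 in the blood. Colon and blood samples of a number come from the same mouse by the study's methods; their deviations from group means correlated across genes at 0.0206 to 0.185, positive in all 6 mice. Alternatives were other scalings and filters, DESeq2 1.42.0, limma-voom (limma 3.58.1), a replicate block and left-out libraries. The scripts were tested on simulated data. Protein sequences were not used here, and 1 regulator and 1 motif are not reported here.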

Additional observations from a re-analysis of the deposited data

Results flagged for a closer look

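In 5 of the 70 sets of 6 libraries (a member in a tissue), 1 library lay outside the others by more than Dixon's critical value, and chance gives about 5% of sets. In the colon, Gstp3 was at 937 in mouse 9 (next 365), Sult1e1 at 86.6 in mouse 4 (next 36.7) and Ugt2b38 at 346 in mouse 1, with 0 in the other 5. In the blood, Gstp3 was at 179 in mouse 1 (next 94.3) and Gstp2 at 0 in mouse 4 (next 122). Gstp3, a pi class glutathione transferase, was thus outlying in both tissues, in mice of different labels. Gstp2 shares 49.1% of its 50-base stretches with Gstp1, which was at 416 in the same blood library. The causes were not tested.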

How the results depend on the processing

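Of 464 values recomputed under alternatives, 364 of single genes and 80 of counts kept their direction and side of the threshold. In the labelled comparisons and the interaction 0 members were called under every alternative run. With a minimum mean of 50, 15 members were kept in blood in place of 24. Scaling by library size only gave a log2FC of -0.51 for Gstm5 between tissues. With the longest transcript as the length, Gstp1 moved from rank 5 to rank 2 in colon, while Gsto1 stayed at rank 1 there and Gstp1, Gsto1 and Gsta2 at ranks 2, 4 and 5 in blood, although the level per length of each rose by more than 1 SD.

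With each mouse left out in turn, the log2FC ran from -0.49 to 0.10 for Gsta1 and from -0.41 to 0.082 for Gsta4 in colon, and from -0.0022 to 0.77 for Gstp3 and from -2.96 to 0.10 for Ugt1a1 in blood, so these signs rest on single libraries. Calls between tissues ran from 34 to 37. In alternatives chosen after the data were seen, leaving out mice 2 and 4 gave -0.033 for Gstm7, 0.38 for Gsta1 and 0.41 for Gsta4 in colon and -0.26 for Gstz1 and 0.12 for Ugt1a1 in blood, and leaving out mice 7 and 9 gave 0.060 for Gsta4 and -0.047 for Ugt2b34 in the interaction. The cause of these reversals was not tested.

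When the mouse entered as a replicate block, 0 members were called in the interaction and 37 between tissues, against 35 without it, so no call count moved by more than 1.5 times. Over all genes DESeq2 called 6 in colon, 6 in blood and 21 in the interaction, where edgeR called 1, 0 and 1. In blood, library size alone moved the median log2FC of all genes from 0.04 to -0.27. Blood depth limits members there, where the members together had 5185 to 11352 counts per library, against 114783 to 274761 in colon.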
